A study of Caenorhabditis elegans with 4 samples.

Results

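The proteasome is the multi-subunit protease that degrades proteins tagged with ubiquitin. Its core particle is a barrel of alpha and beta rings, with the proteolytic sites inside the beta rings, and its regulatory particle, made of a base and a lid, binds ubiquitin chains, removes them and unfolds the substrate. In C. elegans the pas and pbs genes encode the alpha and beta subunits of the core, the rpt genes the ATPases of the base, and the rpn genes the non-ATPase subunits of base and lid. The subunits assemble in fixed proportions, and in C. elegans the transcription factor isoform SKN-1A raises their genes when proteasome function is impaired.

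All genes with a WormBase public name of pas-, pbs-, rpt- or rpn- followed by a number were taken, which gave 33 of the 20535 genes in the files. These were 7 pas and 7 pbs genes, together the 14 core genes, and 6 rpt and 13 rpn genes, together the 19 regulatory particle genes. For the base and the lid, the 6 rpt genes were placed in the base with rpn-1, rpn-2, rpn-10 and rpn-13, and the other 9 rpn genes in the lid. All 33 were protein-coding in the WBcel235 annotation, with 10 on chromosome I, 7 on II, 8 on III, 3 on IV and 5 on V.

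RNA of whole C. elegans was sequenced in 2 strains with 2 libraries each. The mutant strain, VL1080, carries the ww4 allele of mccc-1, on chromosome IV, together with the transgene wwIs24. The control strain, VL749, carries wwIs24 alone. The labels give wwIs24 as acdh-1p::GFP, green fluorescent protein under the acdh-1 promoter, combined with unc-119(ed3). Each sample held at least 200 animals, synchronized by a 20 h arrest in the first larval stage, grown on NGM agar with Comamonas aquatica DA1877 as food, and taken 70 h after hatching at 20 °C. The product of mccc-1 is a subunit of an enzyme of leucine breakdown, methylcrotonyl-CoA carboxylase, and the comparison asks how its mutation affects gene expression. The labels call the libraries biological replicates but not whether they came from separate cultures, so the p-values rest on a spread that could be technical in part.

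The values were FPKM, fragment numbers scaled to transcript length and to the mapped fragments of each library. They summed to 741399 and 770579 in the mutant libraries and to 786436 and 780720 in the control libraries, and the sources used here do not give the sequencing depth. The RNA of mccc-1 itself was at 100.43 and 100.33 FPKM in the mutant and at 104.19 and 105.26 FPKM in the control libraries. The lesion of ww4 is not in the labels, so this level checks neither label. Markers of germline, intestine, muscle, neurons and hypodermis were above the filter for low values, except dpy-7 and rol-6 of the hypodermis.

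Most proteasome subunit genes had slightly higher values in the mutant, but no single subunit passed the test. Of the 33 subunits, all of them tested, 0 were called higher, where 1.06% of all 13091 tested genes were, and 0 were called lower, where 7.3% were (limma on log2(FPKM + 1), Benjamini-Hochberg adjusted p under 0.05 over all tested genes). At an unadjusted p under 0.05 limma had 3 subunits higher, where 8.16% of all tested genes were, and 0 lower, where 13.5% were. The log2 fold change was above 0 for 32 of the 33, where 55.6% of tested genes had one above 0, and rpn-6.2 was the exception. With upper-quartile scaling it was above 0 for 28, and pas-5, rpn-2, rpn-6.1 and rpn-8 changed sign. Both mutant libraries lay above both control libraries for 20 subunits, where this held for 28.9% of tested genes, and both lay below for 1, where it held for 23.2%.

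The median log2 fold change was 0.19 over the 33 subunits and 0.05 over all tested genes, and the subunits ranged from -0.39 to 0.39. The median of the ratio of mean FPKM, mutant over control, was 1.149. The standard error of a single subunit had a median of 0.13, and the highest upper bound of the 95% limma intervals, that of rpt-1, was 0.70, a fold of 1.629. These intervals are not adjusted for the number of genes. In RNA of whole animals, a change in the share of cells of a type and a change of RNA per cell cannot be told apart.

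**Figure D1:**
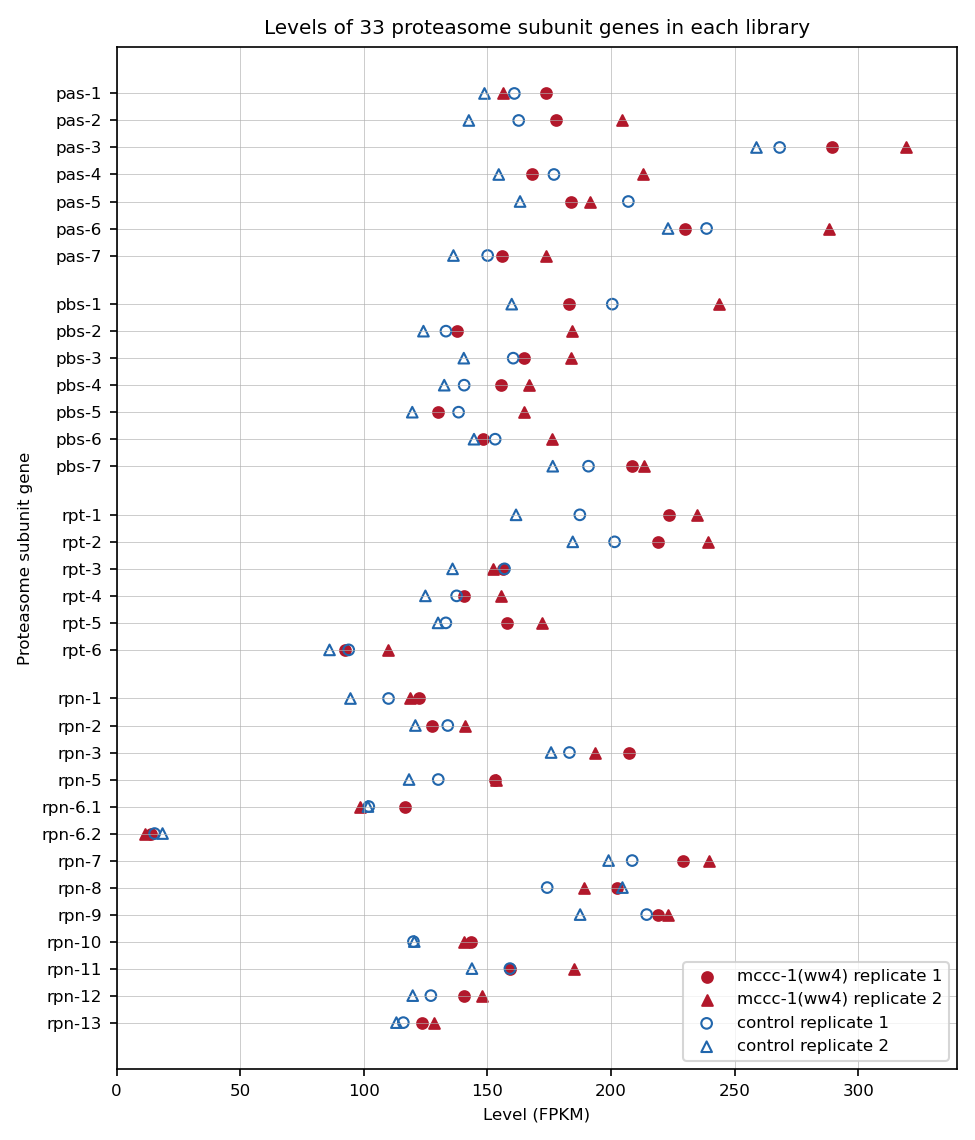
Level in FPKM (x axis) of each of the 33 subunit genes (y axis) in the 2 mccc-1(ww4) libraries (filled) and the 2 control libraries (open); circles are replicate 1 and triangles replicate 2. Filled symbols lie to the right of both open ones for 20 genes, and rpn-6.2 stands far below the others, at 11.38 to 18.56 FPKM.

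Over the 4 libraries the mean levels of the subunits other than rpn-6.2 ran from 95.52 FPKM for rpt-6 to 283.9 FPKM for pas-3, a range of 2.972-fold across 32 genes, and each lay above at least 90.7% of the tested genes. Their coefficient of variation within a library was 24.8% and 26.7% in the mutant and 25.1% and 25.7% in the control libraries. The order of the levels was alike in all libraries, with Spearman's rho over these 32 genes of 0.908 between the mutant libraries, 0.958 between the control libraries and 0.904 to 0.95 between strains. These are descriptions over genes measured in the same libraries, each scaled to its own transcript length. The highest were pas-3 with 283.9, pas-6 with 245.1, rpn-7 with 219.0, rpn-9 with 211.1 and rpt-2 with 211.0 FPKM, and the lowest after rpt-6 were rpn-6.1 with 104.6, rpn-1 with 111.4 and rpn-13 with 120.3 FPKM. Of the 32 pairs of neighbours in the order of all 33 genes, 28 differed by less than the pooled SD between libraries of a strain. The other 4 were pas-3 above pas-6, rpn-2 above rpn-13, rpn-13 above rpn-1 and rpt-6 above rpn-6.2.

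The alpha ring forms the outer gates of the core. All 7 pas genes had a log2 fold change above 0, where 55.6% of tested genes did, with a median of 0.19. Of the 7, 0 were called, where 1.06% of tested genes were called higher and 7.3% lower. For 3 of them the mutant libraries lay above the control libraries, where this held for 28.9% of tested genes. pas-2 was at 177.58 and 204.47 FPKM in the mutant and at 162.66 and 142.49 FPKM in the control libraries. The groups did not overlap, and the difference had the lowest p of the ring without passing (means 191.0 ± 19.01 and 152.6 ± 14.26 FPKM, SD, n = 2 each; limma log2 fold change 0.32 with SE 0.14, adjusted p = 0.239).

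pas-3, the most abundant subunit RNA, and pas-7 also showed mutant libraries above control libraries. pas-3 was at 289.23 and 319.32 FPKM in the mutant and at 268.25 and 258.87 FPKM in the control libraries. pas-7 was at 155.88 and 173.58 FPKM in the mutant and at 150.1 and 136.26 FPKM in the control libraries. For the other 4 alpha genes the strains overlapped. pas-5 had the smallest difference of the ring, with 183.96 and 191.61 FPKM in the mutant and 207.03 and 163.22 FPKM in the control libraries (limma log2 fold change 0.03 with SE 0.15, adjusted p = 0.935). Both mutant values lay between the control values, and the sign turned without control replicate 2 (-0.14) and with median-of-ratios scaling (-0.01). The log2 fold changes of pas-1, pas-4 and pas-6 were 0.09, 0.19 and 0.16, and for pas-4 and pas-6 the mutant replicate 2 alone was above the controls.

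The beta ring carries the proteolytic sites, in pbs-1 (caspase-like), pbs-2 (trypsin-like) and pbs-5 (chymotrypsin-like) by their orthologs in yeast and mammals. All 7 pbs genes had a log2 fold change above 0, where 55.6% of tested genes did, with a median of 0.21 and a range of 0.12 to 0.31. Of the 7, 0 were called, where 1.06% of tested genes were called higher and 7.3% lower. The mutant libraries lay above the control libraries for 4 of them, where this held for 28.9% of tested genes.

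Among the catalytic subunits only pbs-2 showed strains that did not overlap. It was at 137.56 and 184.39 FPKM in the mutant and at 133.23 and 124.12 FPKM in the control libraries (means 161.0 ± 33.11 and 128.7 ± 6.44 FPKM, SD, n = 2 each; limma log2 fold change 0.31 with SE 0.16, adjusted p = 0.351). Mutant replicate 1 was barely above the higher control, and the spread between the mutant libraries exceeded the difference from the controls. pbs-1 was at 183.08 and 243.64 FPKM in the mutant and at 200.53 and 159.84 FPKM in the control libraries (0.24, SE 0.18, limma adjusted p = 0.530). pbs-5 was at 129.86 and 164.67 FPKM in the mutant and at 138.34 and 119.6 FPKM in the control libraries (0.18, SE 0.16, limma adjusted p = 0.574). In both genes mutant replicate 1 lay between the control libraries and mutant replicate 2 above them.

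The other beta subunits are structural. pbs-4 had the lowest p of the ring, with 155.43 and 166.74 FPKM in the mutant and 140.59 and 132.53 FPKM in the control libraries (means 161.1 ± 7.997 and 136.6 ± 5.699 FPKM, SD, n = 2 each; limma log2 fold change 0.24 with SE 0.12, adjusted p = 0.321). The strains did not overlap there, nor for pbs-3 and pbs-7, whose log2 fold changes were 0.21 and 0.20. pbs-6 had the smallest difference, at 148.12 and 175.96 FPKM in the mutant and 153.14 and 144.58 FPKM in the control libraries (0.12, SE 0.13, limma adjusted p = 0.689), and its sign turned without mutant replicate 2 (-0.01).

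The ATPases of the base unfold substrates and thread them into the core. All 6 rpt genes had a log2 fold change above 0, where 55.6% of tested genes did, with a median of 0.21. Of the 6, 0 were called, where 1.06% of tested genes were called higher and 7.3% lower. In 4 of them both mutant libraries lay above both control libraries, where this held for 28.9% of tested genes. rpt-1 (WBGene00004501; chromosome V, 11980534 to 11982397, reverse strand, WBcel235) had the highest log2 fold change and the lowest p of all subunits. It was at 223.33 and 234.63 FPKM in the mutant and at 187.39 and 161.59 FPKM in the control libraries (means 229.0 ± 7.99 and 174.5 ± 18.24 FPKM, SD, n = 2 each; limma log2 fold change 0.39 with SE 0.13, adjusted p = 0.134). Its 95% interval, 0.08 to 0.70, excluded 0 before adjustment, and 89.36% of tested genes had a smaller log2 fold change. Both mutant libraries were above both controls by more than the controls differed from each other.

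rpt-5 was the other ATPase gene whose unadjusted interval, 0.04 to 0.61, lay above 0. It was at 158.13 and 172.02 FPKM in the mutant and at 133.19 and 130.04 FPKM in the control libraries (limma log2 fold change 0.32 with SE 0.12, adjusted p = 0.172). rpt-2 was at 219.07 and 239.06 FPKM in the mutant and at 201.45 and 184.53 FPKM in the control libraries. rpt-4 was at 140.58 and 155.38 FPKM in the mutant and at 137.54 and 124.92 FPKM in the control libraries. In both, the lower mutant library exceeded the higher control library, in rpt-4 by a small margin. rpt-3 was at 156.28 and 152.12 FPKM in the mutant and at 156.93 and 135.9 FPKM in the control libraries (0.08, SE 0.13, limma adjusted p = 0.788), and rpt-6 had a log2 fold change of 0.16; both overlapped between the strains.

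The non-ATPase subunits of the base hold the scaffold and ubiquitin-binding proteins. rpn-10, a ubiquitin receptor also known in C. elegans for its part in the switch from sperm to oocytes, had the tightest replicates among them. It was at 143.52 and 140.43 FPKM in the mutant and at 120.07 and 120.42 FPKM in the control libraries (limma log2 fold change 0.24 with SE 0.11, adjusted p = 0.295). The strains did not overlap. For the large scaffold rpn-1 they did not overlap either, at 122.46 and 118.72 FPKM in the mutant and at 110.0 and 94.59 FPKM in the control libraries (0.24, limma adjusted p = 0.353). The ubiquitin receptor gene rpn-13 had a log2 fold change of 0.14 without overlap, and the scaffold gene rpn-2 one of 0.07 with overlap.

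The lid removes ubiquitin before degradation. Of its 9 genes 0 were called, where 1.06% of tested genes were called higher and 7.3% lower. A log2 fold change above 0 was seen for 8 of them, where 55.6% of tested genes had one, and the median of the 9 was 0.16. rpn-5, a scaffold subunit of the lid, had the highest log2 fold change and the lowest p of the rpn genes. It was at 153.22 and 153.44 FPKM in the mutant and at 130.12 and 118.3 FPKM in the control libraries (means 153.3 ± 0.156 and 124.2 ± 8.358 FPKM, SD, n = 2 each; limma log2 fold change 0.30 with SE 0.12, adjusted p = 0.202). The mutant libraries were nearly equal and above both controls. rpn-11, the deubiquitinase of the lid, was at 159.19 and 184.86 FPKM in the mutant and at 159.11 and 143.74 FPKM in the control libraries (0.18, SE 0.13, limma adjusted p = 0.512). Mutant replicate 1 and control replicate 1 were almost the same for it.

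Of the remaining lid genes, rpn-3, rpn-7, rpn-9 and rpn-12 had log2 fold changes of 0.16, 0.20, 0.14 and 0.22, each with both mutant libraries above both controls. rpn-8, the partner of rpn-11 in the lid, went against the usual order of the control libraries, at 202.61 and 189.14 FPKM in the mutant and 174.19 and 204.64 FPKM in the control libraries (0.05, SE 0.13, limma adjusted p = 0.875). Its control replicate 2 was the highest of the 4 libraries, and its sign turned without control replicate 1 (-0.06).

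The lid subunit Rpn6 has a pair of genes in the worm. rpn-6.1 (WBGene00004462; chromosome III, 6959110 to 6962001, reverse strand, WBcel235), known in C. elegans for its effect on proteasome activity and life span, was at 116.61 and 98.32 FPKM in the mutant and at 102.01 and 101.66 FPKM in the control libraries. The strains overlapped (means 107.5 ± 12.93 and 101.8 ± 0.248 FPKM, SD, n = 2 each; limma log2 fold change 0.07 with SE 0.13, adjusted p = 0.816). rpn-6.2 (WBGene00010309; chromosome III, 8999817 to 9001999, reverse strand, WBcel235) was the only subunit with a log2 fold change below 0 and the only one with both mutant libraries below both controls. It was at 13.94 and 11.38 FPKM in the mutant and at 15.34 and 18.56 FPKM in the control libraries (means 12.66 ± 1.81 and 16.95 ± 2.277 FPKM; limma log2 fold change -0.39 with SE 0.20, adjusted p = 0.318). Its level lay above 50.91% of tested genes. The pair may share reads, which the authors' quantification would have divided.

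**Figure D2:**
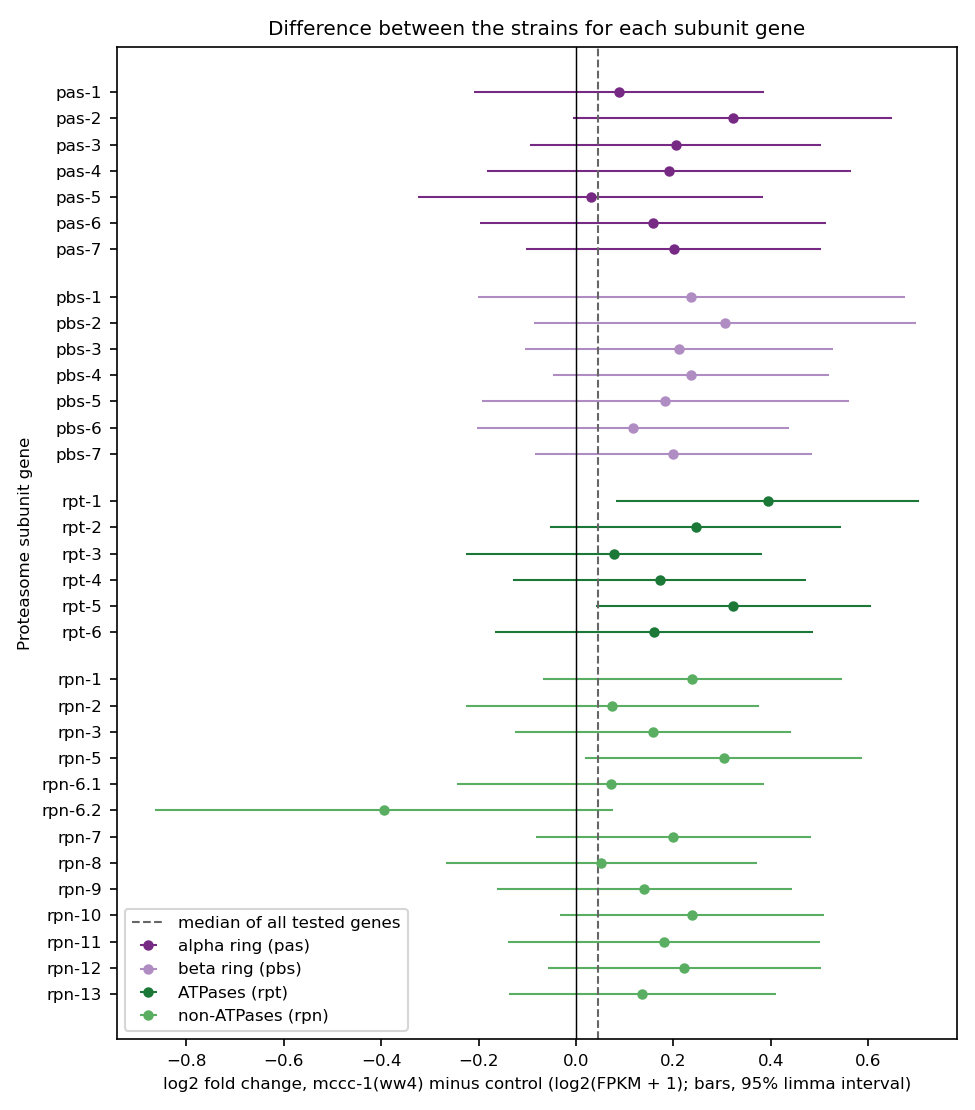
log2 fold change, mccc-1(ww4) minus control, on the log2(FPKM + 1) scale (x axis) of each subunit gene (y axis), with bars for the 95% limma interval; the dashed line is the median of all tested genes, 0.05. Intervals of rpt-1, rpt-5 and rpn-5 lie above 0 before adjustment, and none of the 33 genes passed after it.

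Core and regulatory particle differed between the strains by similar amounts. The median log2 fold change was 0.20 over the 14 core genes and 0.17 over the 19 regulatory particle genes, beside 0.05 over all tested genes. The summed level of the core genes was 2506 and 2879 FPKM in the mutant and 2482 and 2225 FPKM in the control libraries. That of the regulatory particle genes was 2949 and 3032 FPKM in the mutant and 2704 and 2541 FPKM in the control libraries. Neither sum overlapped between the strains, but for the core the lower mutant library was close to the higher control. The means were 1.144 times (core) and 1.14 times (regulatory particle) the control means.

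The balance of core to regulatory particle did not differ beyond the spread of the libraries. The mean log2(FPKM + 1) of the core genes minus that of the regulatory particle genes, with rpn-6.2 left out, was 0.15 and 0.31 in the mutant and 0.26 and 0.19 in the control libraries. Both control values lay between the mutant values. The means were 0.23 ± 0.11 in the mutant and 0.23 ± 0.05 in the control libraries (SD, n = 2 each), a difference of 0.0038. The core excess in both strains is a difference between levels per length of different genes.

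The libraries of a strain also differed among themselves. In the mutant, replicate 2 exceeded replicate 1 for 13 of 14 core genes with a median log2 difference of 0.18, and for 12 of 19 regulatory particle genes with one of 0.06. Over all tested genes replicate 2 was the higher one for 41.8%, with a median of -0.06. In the control, replicate 1 exceeded replicate 2 for 14 of 14 core and 16 of 19 regulatory particle genes, with medians of 0.13 and 0.12, where it did for 39.7% of tested genes with a median of -0.07. Mutant replicate 2 was the highest of the 4 libraries for 24 of the 33 subunits, against 18.3% of tested genes, and control replicate 2 the lowest for 29, against 26.3%.

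The size of the core difference rested on 2 libraries. Its median was 0.11 without mutant replicate 2 and 0.11 without control replicate 2, while that of all tested genes was 0.09 and 0.06 in those fits. It was 0.29 without mutant replicate 1 and 0.27 without control replicate 1. The median of the regulatory particle was 0.17, 0.13, 0.22 and 0.24 in the same order of left-out libraries. With upper-quartile scaling the medians were 0.12 for the core and 0.10 for the regulatory particle, against -0.02 for all tested genes. No subunit was called in any of the 16 other settings tried.

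**Figure D3:**
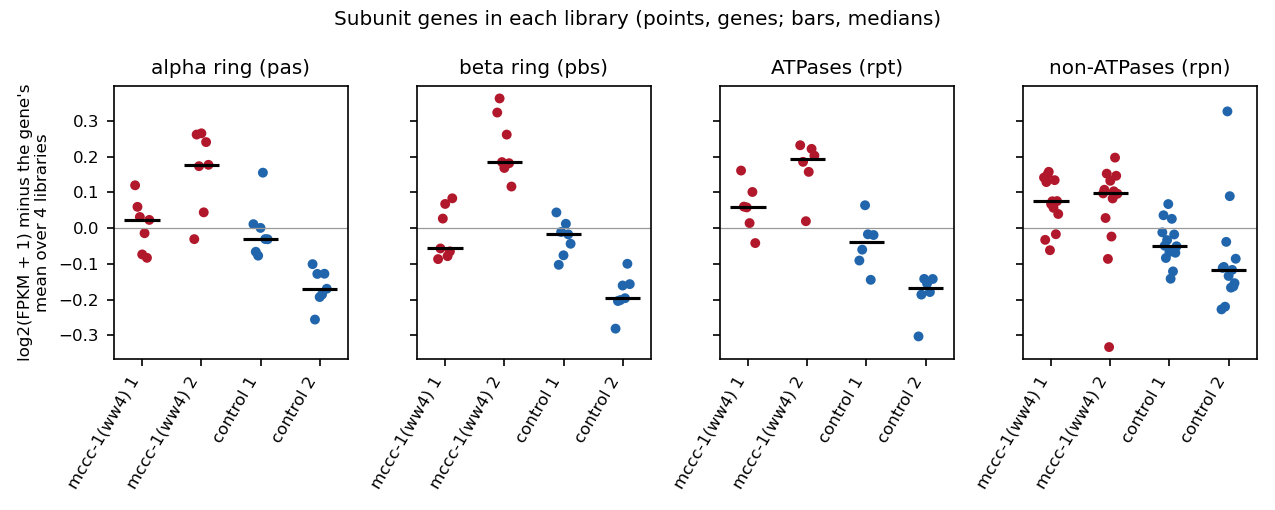
log2(FPKM + 1) of each subunit gene minus its mean over the 4 libraries (y axis) in each library (x axis), by gene family; points are genes and bars medians. Mutant replicate 2 is the highest and control replicate 2 the lowest library by the median in all 4 families, while mutant replicate 1 is below control replicate 1 in the beta ring.

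Related genes of the ubiquitin system, in 5 lists chosen with earlier results of these data known, had medians above 0 with 0 genes called in any of them, beside the 1.06% called higher and 7.3% called lower of all tested genes. A log2 fold change above 0 was seen for 55.6% of all tested genes. Of 7 tested genes of proteasome-associated proteins and assembly, 0 were called and 5 had one above 0, with a median of 0.21. psmd-9, whose mammalian ortholog is an assembly chaperone of the base, had the lowest p of the list, at 28.42 and 37.36 FPKM in the mutant and 24.41 and 23.3 FPKM in the control libraries (limma log2 fold change 0.43 with SE 0.17, adjusted p = 0.211). dss-1, a small lid-associated protein, and usp-14 and ubh-4, deubiquitinases that bind the regulatory particle, had log2 fold changes of 0.29, 0.29 and 0.20. psme-3, a gene of an alternative activator of the core, and hecd-1 had values of -0.20 and -0.17.

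SKN-1A is made active by release from the endoplasmic reticulum, removal of its sugars by the PNG-1 glycanase and cleavage by the DDI-1 protease. The list for SKN-1A activation was wider than these steps. Of its 8 genes 0 were called and 8 had a log2 fold change above 0, where 55.6% of tested genes did, with a median of 0.22. Besides skn-1, png-1, ddi-1 and sel-11, it held sel-1, hrdl-1, sel-9 and xbp-1, with log2 fold changes of 0.22, 0.12, 0.14 and 0.04. skn-1 was at 115.52 and 96.88 FPKM in the mutant and at 86.16 and 85.71 FPKM in the control libraries (limma log2 fold change 0.30 with SE 0.13, adjusted p = 0.265). The values do not separate its isoforms, and both mutant libraries were above both controls. The log2 fold changes of png-1 and ddi-1 were 0.25 and 0.21, and sel-11, a ubiquitin ligase of the endoplasmic reticulum with the lowest p of the list, one of 0.27 (limma adjusted p = 0.261).

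The next 3 lists also stand beside the 55.6% of all tested genes with a log2 fold change above 0. Of 17 genes of ubiquitin delivery and unfolding, 0 were called and 16 had a log2 fold change above 0, with a median of 0.25. ufd-3 had the lowest p, at 100.41 and 88.26 FPKM in the mutant and 74.55 and 71.93 FPKM in the control libraries (limma log2 fold change 0.36 with SE 0.13, adjusted p = 0.159). The shuttle gene rad-23 had one of 0.28, the segregase genes cdc-48.1 and cdc-48.2 had 0.08 and 0.18, and aip-1, a proteasome-linked gene known to be induced by arsenite, had -0.05. Of 14 ubiquitin genes and activating or conjugating enzymes, 0 were called and 9 were above 0, with a median of 0.16. ubc-14 had the lowest p (0.41, SE 0.14, limma adjusted p = 0.145), the polyubiquitin gene ubq-1 had 0.38, and ubl-1, which fuses a ubiquitin-like protein to a ribosomal protein, had -0.44 (limma adjusted p = 0.199). Of 16 genes of the cullin ligase core, 0 were called and 14 were above 0, with a median of 0.17, and the neddylation enzyme gene ubc-12 had the lowest p (0.34, SE 0.14, limma adjusted p = 0.235).

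Markers of sperm and oocytes differed between the same libraries. Of 28 tested major sperm protein genes 28 fell, where 7.3% of all tested genes did. They belong to a single gene family, among which the authors' quantification may have divided shared reads, so they may not be 28 separate results. The summed levels of the 30 genes in the files were 2819 and 4312 FPKM in the mutant libraries. In the control libraries they were 11030 and 10560 FPKM, and 1 of the 30 genes was at 0 in a library. Of 12 other tested sperm genes 8 fell and 4 did not pass, with sums of 106.9 and 149.4 FPKM in the mutant and 366.6 and 396.0 FPKM in the control libraries. Of 12 oocyte genes, spn-4 and mex-6 rose, where 1.06% of all tested genes did, and 10 did not pass. All 12 had a log2 fold change above 0, where 55.6% of tested genes did, with a median of 0.54. Their sums were 4586 and 4551 FPKM in the mutant and 3689 and 3124 FPKM in the control libraries. Fewer genes of each list were called with control replicate 2, mutant replicate 1 or mutant replicate 2 left out, and no oocyte gene was. Without control replicate 1 the calls stayed close to those of the full fit. Each of these fits has 1 library in a strain. The calls also hang on the filter for low values. At a minimum of 0.1 FPKM, or with any value above 0, 1 of all tested genes was called lower and 3 higher. At most 1 of the sperm gene calls therefore holds there. The part of sperm and oocytes in the subunit values was not tested.

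The germline list, with 7 genes tested and 0 called, had a median log2 fold change of -0.01 and sums of 1010 and 1008 FPKM in the mutant and 1010 and 1037 FPKM in the control libraries. The intestine, muscle, neuron and hypodermis lists had 0 called and medians of 0.12, -0.16, -0.04 and -0.03. The intestine sums were 586.8 and 574.8 FPKM in the mutant and 597.2 and 359.9 FPKM in the control libraries. Control replicate 2 had the lowest sum for intestine and for hypodermis (2848 FPKM). It had the highest for muscle (4026 FPKM) and neurons (279.9 FPKM). The part of these tissues in the subunit values was not tested.

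**Figure D4:**
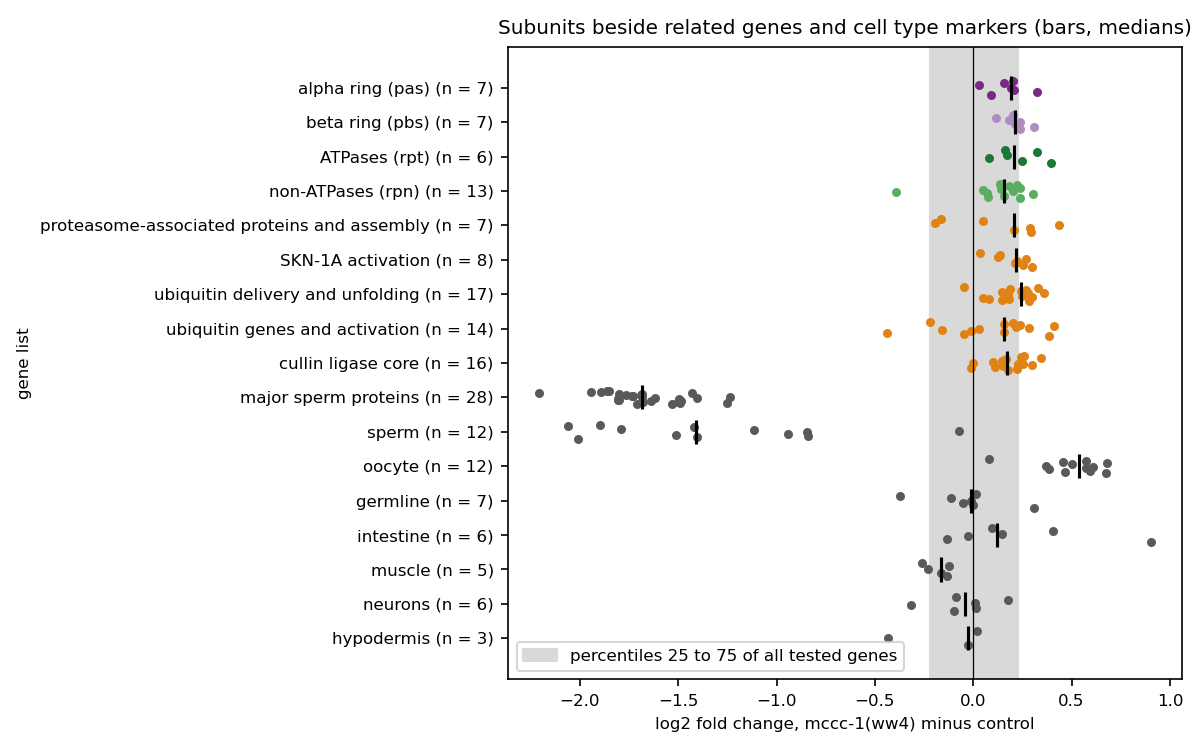
log2 fold change, mccc-1(ww4) minus control (x axis), of each tested gene of the subunit families, the related lists and the marker lists (y axis); bars are medians, and the grey band runs from percentile 25 to percentile 75 of all tested genes, -0.22 to 0.23. The 4 subunit families and the 5 related lists have medians of 0.16 to 0.25, the sperm lists lie at -1.69 and -1.41 and the oocyte list at 0.54.

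The position of the subunit genes on the chromosomes bears on how their reads could be assigned. In the WBcel235 annotation the spans of 12 of the 33, introns included, overlapped the span of another gene. The other gene was on the opposite strand in all but 2 cases. Whether exons overlap was not checked, and the sources used here do not give the strandedness of the libraries. It is therefore not known whether the genes share reads in these stretches. The overlap of spans was longest for rpt-4, at 1011 bp with nfyc-1 and 1177 bp with rpoa-49. nfyc-1 was at 60.37 and 57.88 FPKM in the mutant and at 41.52 and 41.47 FPKM in the control libraries, below rpt-4, and did not pass (log2 fold change 0.50, limma adjusted p = 0.0585). pbs-7 overlapped K07A12.5 by 70 bp on the same strand. K07A12.5 had 6.65 and 5.74 FPKM in the mutant against 14.16 and 15.36 FPKM in the control libraries. It fell (log2 fold change -1.13, limma adjusted p = 0.0216), opposite in sign to the 0.20 of pbs-7. At a minimum of 0.1 FPKM, or with any value above 0, only 1 of all tested genes was called lower. K07A12.5 still passed without control replicate 1 but not with any other single library left out. Each of these fits has 1 library in a strain.

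Some subunits had a close neighbour on the same strand. A protein-coding gene ended within 500 bp upstream of 8 of the 33, and those 8 had a median log2 fold change of 0.16, against 0.20 for the other members. Of the 8 upstream neighbours 6 were tested and 0 called, where 1.06% of all tested genes were called higher and 7.3% lower. A log2 fold change above 0 was seen for 5 of these neighbours, where 55.6% of all tested genes had one. The nearest upstream gene of rpn-6.2, F59B2.15 at 54 bp, had a log2 fold change of -1.66 (limma adjusted p = 0.122). Its mean level was low, at 2.9 FPKM. The nearest downstream gene, F59B2.3 at 50 bp with a mean of 30.5 FPKM, had a log2 fold change of 0.15.

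**Figure D5:**
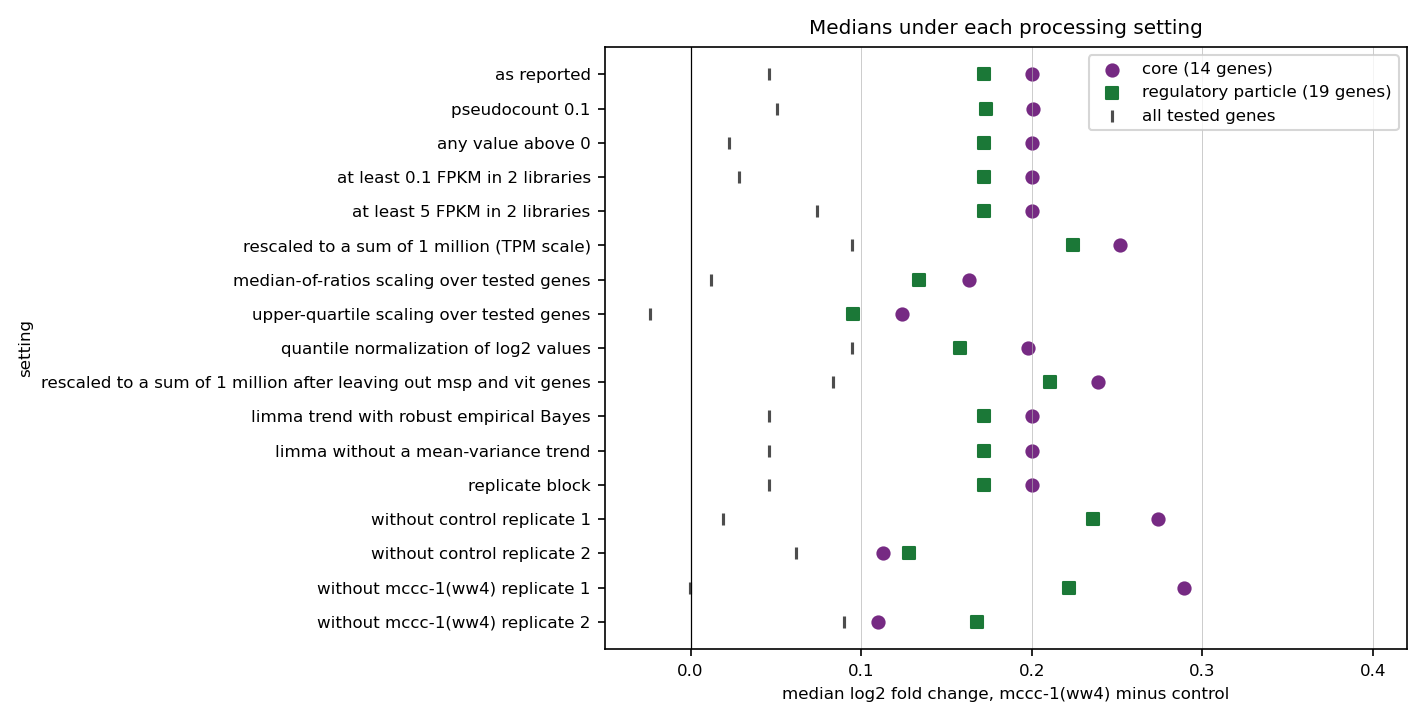
Median log2 fold change, mccc-1(ww4) minus control (x axis), of the 14 core genes, the 19 regulatory particle genes and all tested genes under each processing setting (y axis). Both subunit medians are above that of all tested genes in every setting, and the core median comes closest to it without mutant replicate 2, at 0.11 against 0.09.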

How the data were processed

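Per the file headers, the authors deposited FPKM, 1 file per library with 20535 genes. Per the submitters' processing notes the authors used Bowtie2 and RSEM. The sources used here do not give versions, genome build, annotation, strandedness or depth, so no counting interval was computed. RSEM divides reads among similar genes by a model. Public names were matched by gene ID (18776 of 20535 matched), and positions come from Ensembl's WBcel235 annotation.

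log2(FPKM + 1) was tested with limma 3.58.1 in R 4.3.3 (strain as the single term, empirical Bayes with trend), mutant minus control, on the 13091 genes that reached 1 FPKM in 2 or more libraries, with Benjamini-Hochberg adjustment over them and a threshold of 0.05. A log2 fold change on this scale understates that of low genes. The script was tested on simulated data. The members, lists and the filter were chosen with earlier results of these data known. Every subunit is named, with library values for those at the extremes of each family, the catalytic genes, rpn-11 and the rpn-6 pair. Where related lists had no called gene, the gene with the lowest p was named. Genes outside this rule, such as overlapping neighbours, rpn-10 and rpn-8, were chosen after their values were seen. Of the listed genes, pcut-1 did not match. No list test was run.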

Additional observations from a re-analysis of the deposited data

How the results depend on the processing

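No subunit was called higher or lower under any of the 16 alternatives. The core median and the core minus regulatory particle difference moved by less than 1 SD between replicates in all of them. The core median ran from 0.11 to 0.29, the regulatory particle median from 0.13 to 0.24 and the difference from -0.08 to 0.08 when 1 library was left out. The regulatory particle median moved by more than that SD with TPM-scale sums (0.22), with upper-quartile scaling (0.10), without control replicate 1 (0.24) and without mutant replicate 1 (0.22). The count of all called genes, 1095, was 4 with any value above 0 or a minimum of 0.1 FPKM, 726 after quantile normalization, 1803 with the replicate block, and 148 to 1164 when 1 library was left out. The cause was not tested.

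Signs turned for pas-5 with median-of-ratios (-0.0075) and upper-quartile scaling (-0.046), and with upper-quartile scaling also for rpn-2, rpn-6.1 and rpn-8 (-0.0015, -0.0046 and -0.025). When 1 library was left out, pas-5 ran from -0.14 to 0.20, pas-6 from -0.0040 to 0.32, pbs-6 from -0.0066 to 0.24, rpn-6.1 from -0.050 to 0.19, rpn-8 from -0.064 to 0.17 and rpt-3 from -0.025 to 0.18. None of these subunits passed in any setting.

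A replicate block, with a number that no label ties to a batch, left 0 subunits called with a lowest limma adjusted p of 0.204. Across genes, the difference between replicates 1 and 2 in the mutant was correlated with that in the control. The r was 0.176 over 13091 genes and, in the opposite direction, -0.517 over the 33 subunits. With 2 libraries a strain and a median ratio of 1.149, the unadjusted 95% limma interval included 0 for every subunit except rpt-1, rpt-5 and rpn-5. Depth is unknown.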
